A study of Mus musculus with 12 samples.

Results

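The genes described here encode receptors of the plasma membrane that carry signals or cargo into the cell: endocytic receptors, receptor tyrosine kinases, receptors of the BMP, TGF-beta, Notch and Hedgehog pathways, guidance receptors, receptor phosphatases and a latrophilin. The set was given as a list of 46 gene symbols, and no measured value is part of its rule. Of these, 45 were matched among the 55416 gene identifiers of the count files, and Ptprg was not analysed here. All 45 passed the filter on low counts, which left 16221 genes in the tests.

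RNA came from the mouse embryonic stem cell line E14Tg2a.4, grown with leukemia inhibitory factor and serum. Its large-subunit ribosomal protein Rpl31 is fused to FLAG, a cleavage site for TEV protease and an AviTag (Rpl31-FTA). All 4 groups carry this tag and were transfected with N- and C-terminal fragments of ALIBi, a split biotinylation system that marks tagged ribosomes either in the cytosol or at the endoplasmic reticulum (ER). Marked ribosomes were purified with their mRNAs from lysates containing cycloheximide, giving the cytosol-labelled and ER-labelled ribosome-bound groups, and RNA of the same lysates gave a whole-cell group for each targeting. Each group held 3 biological replicates, 12 libraries in all, and the labels name no separate cultures, so the spread that p-values are set against is that of these samples and may be technical. The labels give transient transfection of a single line, and no library of cells without labelled ribosomes was analysed here.

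A receptor of this kind is made by a ribosome that docks at the ER. A hydrophobic stretch of the nascent chain, either a cleaved signal peptide at its start or the first membrane anchor, is bound by the signal recognition particle, and the ribosome is handed to the translocon, through which the extracellular part enters the ER lumen. The protein then passes the Golgi apparatus to reach the cell surface. In embryonic stem cells these receptors read FGF, BMP, insulin-like and Wnt cues that weigh on self-renewal, and take up iron and lipoproteins.

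The libraries held 21.1 to 26.9 M reads counted in genes. Levels are given in CPM (counts per M counts in tested genes) scaled by the trimmed mean of M values (TMM). On that scale a count of 3 corresponded to 0.107 to 0.148 CPM over the libraries. The cells carried the markers of their label: 8 of 8 pluripotency genes were tested, and their summed level was 8240 to 13400 CPM over the libraries. Lists of 6 genes each for endoderm, mesoderm and neural cells summed to 8.45 to 16.1, 16.0 to 23.9 and 66.9 to 82.7 CPM, with 2 genes of each list under 1 CPM in every library. Fibroblast markers summed to 31.1 to 38.0 CPM in 3 groups and to 88.7 to 92.8 CPM on ER-labelled ribosomes, led by Thy1, a membrane-anchored protein. Markers of the 2-cell-like state summed to 5.66 to 7.54 CPM in whole-cell RNA, 49.4 to 53.1 CPM on cytosol-labelled ribosomes and 31.5 to 32.1 CPM on ER-labelled ribosomes, and the part of either difference in the results was not tested.

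The starts of the coding sequences show what a ribosome meets first on these mRNAs. The first 40 codons are printed below for the 3 receptors with the highest and the 3 with the lowest ratio of ER-labelled to cytosol-labelled ribosomes, from the GENCODE M21 transcripts, 5′ to 3′. Capitals mark the codons of the most hydrophobic 11-residue window by the Kyte-Doolittle scale.
Vldlr: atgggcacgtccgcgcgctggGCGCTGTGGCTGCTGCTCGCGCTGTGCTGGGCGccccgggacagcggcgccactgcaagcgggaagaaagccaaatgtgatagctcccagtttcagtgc
Ptk7: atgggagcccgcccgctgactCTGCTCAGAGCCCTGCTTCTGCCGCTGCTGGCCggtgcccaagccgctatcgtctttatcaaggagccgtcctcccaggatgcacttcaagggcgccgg
Ptprf: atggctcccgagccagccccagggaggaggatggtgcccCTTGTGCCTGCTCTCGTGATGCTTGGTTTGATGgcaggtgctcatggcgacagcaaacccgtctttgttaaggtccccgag
Bmpr2: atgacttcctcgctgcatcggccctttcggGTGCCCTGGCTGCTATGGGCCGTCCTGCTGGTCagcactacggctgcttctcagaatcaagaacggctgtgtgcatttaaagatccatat
Lrp1: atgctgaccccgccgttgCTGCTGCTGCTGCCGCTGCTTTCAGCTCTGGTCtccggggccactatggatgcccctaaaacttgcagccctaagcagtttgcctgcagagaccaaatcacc
Nrp2: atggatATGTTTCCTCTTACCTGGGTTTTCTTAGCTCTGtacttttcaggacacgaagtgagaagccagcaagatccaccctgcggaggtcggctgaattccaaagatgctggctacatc
The mean hydropathy of the window in capitals was 2.28 in Vldlr, 2.19 in Ptk7 and 2.47 in Ptprf, against 2.38 in Bmpr2, 2.75 in Lrp1 and 1.97 in Nrp2. The scores of the high and the low receptors therefore overlapped, and Lrp1, with one of the lowest ratios, had the highest score of the 6.

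Tfrc and Ptch1 are shown for another reason: no hydrophobic window was found within their first 40 residues, where the best scores were 0.44 and 0.87. The transferrin receptor Tfrc is anchored with its amino terminus in the cytosol, and Ptch1 spans the membrane many times. Their first hydrophobic segment of 19 residues started at residue 66 in Tfrc and residue 87 in Ptch1. Capitals mark the codons of that segment, within codons 58 to 87 of Tfrc and 79 to 108 of Ptch1.
Tfrc: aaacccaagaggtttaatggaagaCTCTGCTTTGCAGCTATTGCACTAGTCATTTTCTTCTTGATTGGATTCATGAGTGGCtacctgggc
Ptch1: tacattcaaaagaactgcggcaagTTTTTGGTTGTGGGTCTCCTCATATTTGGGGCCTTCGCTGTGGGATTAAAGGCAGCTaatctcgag
By the cut used here (a window mean of at least 2.0), 37 of the 45 receptors (82.2%) had an N-terminal segment, and all 45 had a 19-residue segment further in with a mean of at least 1.6. Among the 14160 tested genes with a coding sequence the shares were 18.7% and 28.2%. The other 6 receptors without an N-terminal call scored just under the cut, from 1.71 for Notch2 to 1.97 for Nrp2, while Erbb3 with 2.10 lay just above it.

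All 45 receptor mRNAs were higher on ER-labelled than on cytosol-labelled ribosomes, by a median of 3.05-fold (log2 1.61). In the same comparison 29.1% of all tested genes were called higher, and their median log2 ratio was 0.00. In 42 receptors the difference exceeded 2-fold, as it did in 18.1% of tested genes. The log2 ratios ran from 0.69 for Nrp2, a coreceptor for semaphorins and VEGF, to 2.17 for the lipoprotein receptor Vldlr. The 3 ER-labelled libraries lay above the 3 cytosol-labelled libraries without overlap for 45 of 45 receptors and for 31.0% of tested genes. Calls are by the quasi-likelihood test of edgeR at an adjusted p of 0.05 (Benjamini-Hochberg, all tested genes together). When libraries were scaled on genes of cytosolic proteins (cytosolic scaling), the median became 1.76 for the receptors and 0.156 for all tested genes.

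**Figure D1:**
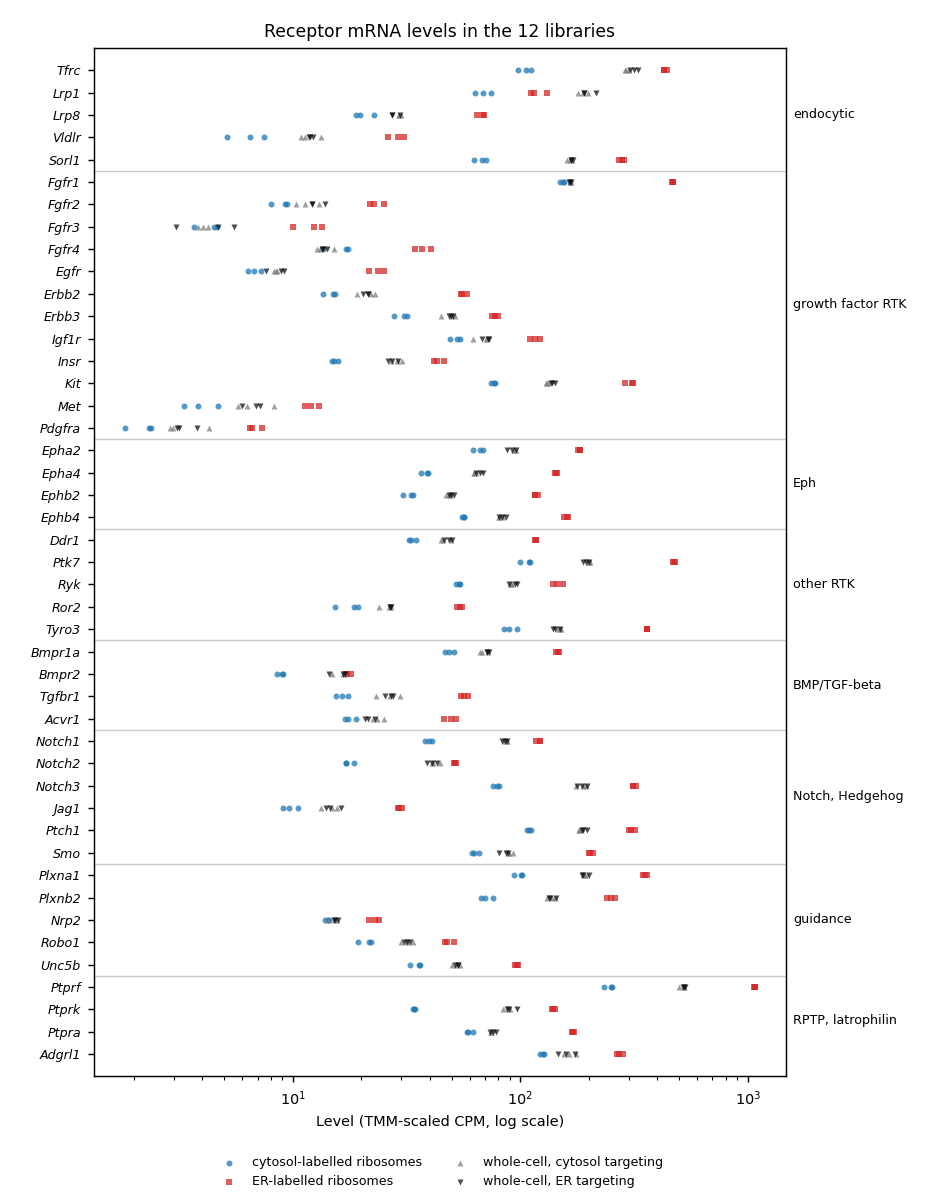
Level of each of the 45 receptor mRNAs in the 12 libraries (TMM-scaled CPM, log axis), grouped by role; each point is 1 library. For every receptor the 3 squares of ER-labelled ribosomes lie to the right of the 3 circles of cytosol-labelled ribosomes. The triangles of both whole-cell groups overlap except for Tfrc, Kit, Epha4 and Ptch1, where those of ER targeting lie slightly to the right.

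Among the 5 endocytic receptors the median log2 ratio was 2.04. Vldlr (ENSMUSG00000024924), which binds reelin and apolipoprotein E, was at 6.51, 5.15 and 7.45 CPM on cytosol-labelled ribosomes and 29.1, 30.8 and 26.3 CPM on ER-labelled ribosomes. Its whole-cell level was 13.3, 11.3 and 10.9 CPM with cytosol targeting and 11.8, 12.3 and 11.9 CPM with ER targeting. The whole-cell libraries thus lay between both ribosome groups without overlap, and the log2 ratio of ER-labelled to cytosol-labelled ribosomes was 2.17 ± 0.093 (SE, adjusted p = 2.2e-21). Lrp1 (ENSMUSG00000040249), a very large receptor that internalises many ligands, was at 74.1, 63.0 and 68.7 CPM on cytosol-labelled ribosomes and 115.0, 131.5 and 111.6 CPM on ER-labelled ribosomes. In whole-cell RNA it was at 197.9, 179.8 and 188.0 CPM with cytosol targeting and 191.5, 215.7 and 191.4 CPM with ER targeting. Lrp1 was therefore highest in whole-cell RNA, above both ribosome groups without overlap, and its log2 ratio between the ribosome groups was 0.80 ± 0.056 (SE, adjusted p = 5.2e-15). Sorl1, a sorting receptor, had a log2 ratio of 2.06, Tfrc, which imports iron bound to transferrin, 2.04, and the reelin receptor Lrp8 1.71.

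The 12 growth factor receptor tyrosine kinases all rose, with a median log2 ratio of 1.56. Kit (ENSMUSG00000005672), the receptor for stem cell factor, was at 77.6, 74.4 and 76.4 CPM on cytosol-labelled ribosomes and 311.0, 312.7 and 289.9 CPM on ER-labelled ribosomes. Its whole-cell level was 129.6, 131.5 and 132.5 CPM with cytosol targeting and 137.5, 141.6 and 136.6 CPM with ER targeting. Whole-cell values again lay between the ribosome groups, and the log2 ratio of the latter was 2.00 ± 0.038 (SE, adjusted p = 3.0e-32). At the other end of this group Igf1r (ENSMUSG00000005533), the receptor for insulin-like growth factor, was at 54.2, 49.4 and 52.5 CPM on cytosol-labelled and 116.6, 122.2 and 110.7 CPM on ER-labelled ribosomes. Whole-cell RNA gave 70.6, 71.3 and 62.1 CPM with cytosol targeting and 68.3, 72.0 and 73.2 CPM with ER targeting. The order of the groups was the same as for Kit, with a log2 ratio of 1.16 ± 0.049 (SE, adjusted p = 1.5e-21) between the ribosome groups. Of the FGF receptors, Fgfr1 reached 1.61, Fgfr3 1.49, Fgfr2 1.39 and Fgfr4 1.21. In the ERBB family, which binds EGF-like ligands, the log2 ratio was 1.94 for Erbb2, 1.79 for Egfr and 1.36 for Erbb3. The insulin receptor Insr was at 1.51, the hepatocyte growth factor receptor Met at 1.62 and Pdgfra at 1.65.

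The 4 Eph receptors, which bind ephrins on neighbouring cells, had a median of 1.68. Epha4 (ENSMUSG00000026235) was at 38.8, 36.7 and 39.2 CPM on cytosol-labelled and 145.7, 144.2 and 141.7 CPM on ER-labelled ribosomes, with whole-cell values of 62.9, 63.9 and 62.9 CPM (cytosol targeting) and 64.1, 68.3 and 66.8 CPM (ER targeting). Epha2 (ENSMUSG00000006445) was at 66.5, 62.1 and 68.3 CPM on cytosol-labelled and 180.4, 182.3 and 182.3 CPM on ER-labelled ribosomes, with whole-cell values of 94.1, 96.1 and 94.4 CPM (cytosol targeting) and 92.0, 87.3 and 95.6 CPM (ER targeting). In both genes the 3 ER-labelled libraries were the highest and the 3 cytosol-labelled the lowest. The log2 ratio was 1.91 ± 0.042 for Epha4 and 1.47 ± 0.040 for Epha2 (SE, adjusted p = 2.1e-30 and 2.0e-27). Ephb2, with 1.86, and Ephb4, with 1.50, lay between them.

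In the 5 other receptor tyrosine kinases and pseudokinases the median was 1.80. Ptk7 (ENSMUSG00000023972), a catalytically inactive receptor of planar cell polarity, was at 110.1, 100.0 and 109.8 CPM on cytosol-labelled and 477.8, 477.0 and 469.4 CPM on ER-labelled ribosomes. Its whole-cell level was 202.7, 198.3 and 201.2 CPM with cytosol targeting and 200.9, 194.8 and 189.4 CPM with ER targeting. No library of one kind overlapped another kind, and the log2 ratio was 2.15 ± 0.038 (SE, adjusted p = 4.3e-33). For Ryk (ENSMUSG00000032547), a Wnt-binding pseudokinase, the level was 53.9, 52.4 and 54.5 CPM on cytosol-labelled and 145.8, 154.0 and 139.3 CPM on ER-labelled ribosomes. Whole-cell RNA held 92.3, 90.1 and 91.5 CPM with cytosol targeting and 89.1, 96.6 and 95.0 CPM with ER targeting. Ryk followed the same order of groups, with a smaller log2 ratio of 1.45 ± 0.043 (SE, adjusted p = 1.6e-26). Tyro3, a receptor for Gas6 and protein S, was at 2.00, the collagen receptor Ddr1 at 1.80 and the Wnt receptor Ror2 at 1.61.

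Receptor kinases of the BMP, TGF-beta and activin pathways, which signal through SMAD proteins, had a median of 1.53. Tgfbr1 (ENSMUSG00000007613) was at 17.5, 15.6 and 16.5 CPM on cytosol-labelled and 56.5, 55.2 and 59.2 CPM on ER-labelled ribosomes, with whole-cell values of 23.3, 26.6 and 29.7 CPM (cytosol targeting) and 26.9, 25.3 and 27.5 CPM (ER targeting). Bmpr2 (ENSMUSG00000067336), the BMP receptor that activates its type I partners, was at 8.99, 9.02 and 8.52 CPM on cytosol-labelled and 17.3, 17.2 and 18.1 CPM on ER-labelled ribosomes. Its whole-cell level was 16.6, 17.0 and 14.9 CPM with cytosol targeting and 17.0, 14.5 and 16.6 CPM with ER targeting. Tgfbr1 was thus far higher on ER-labelled ribosomes than in any other library, whereas the 3 ER-labelled libraries of Bmpr2 lay just above its highest whole-cell library, with the cytosol-labelled libraries far below. The log2 ratio between the ribosome groups was 1.78 ± 0.065 for Tgfbr1 and 0.99 ± 0.081 for Bmpr2 (SE, adjusted p = 1.7e-23 and 3.7e-13). Bmpr1a and Acvr1, both type I receptors, were at 1.57 and 1.48.

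The 6 genes of the Notch and Hedgehog pathways had a median of 1.60. Notch3 (ENSMUSG00000038146), whose cleaved intracellular part acts in the nucleus, was at 76.2, 79.2 and 80.9 CPM on cytosol-labelled and 322.5, 312.5 and 313.6 CPM on ER-labelled ribosomes. Whole-cell RNA gave 189.5, 195.2 and 175.6 CPM with cytosol targeting and 186.2, 177.1 and 196.9 CPM with ER targeting. Ptch1 (ENSMUSG00000021466), the Hedgehog receptor, was at 111.2, 107.1 and 108.8 CPM on cytosol-labelled and 319.2, 308.3 and 301.5 CPM on ER-labelled ribosomes, with whole-cell values of 180.8, 184.2 and 181.4 CPM (cytosol targeting) and 187.3, 196.0 and 188.9 CPM (ER targeting). Both genes had their whole-cell libraries between the ribosome groups, and the log2 ratio of the latter was 2.00 ± 0.042 for Notch3 and 1.51 ± 0.035 for Ptch1 (SE, adjusted p = 6.7e-31 and 2.0e-29). The Hedgehog transducer Smo was at 1.69, Notch1 and the Notch ligand Jag1 at 1.60 each, and Notch2 at 1.55.

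Guidance receptors, which steer axons and migrating cells, held the lowest ratio of all. Nrp2 (ENSMUSG00000025969) was at 14.3, 14.4 and 13.9 CPM on cytosol-labelled and 22.9, 24.0 and 21.6 CPM on ER-labelled ribosomes. Its whole-cell level was 14.2, 15.2 and 15.6 CPM with cytosol targeting and 15.1, 15.3 and 15.7 CPM with ER targeting. The cytosol-labelled and whole-cell libraries of Nrp2 overlapped, the ER-labelled libraries were higher than both, and the log2 ratio between ribosome groups was 0.69 ± 0.067 (SE, adjusted p = 3.7e-11). Tested against a 1.5-fold change in place of none, this was the one call of the 45 that was lost (adjusted p = 0.094), and 18.9% of tested genes were called higher. Plxna1 (ENSMUSG00000030084), a semaphorin receptor, was at 101.0, 94.1 and 102.2 CPM on cytosol-labelled and 353.0, 360.3 and 346.2 CPM on ER-labelled ribosomes. Whole-cell RNA held 192.8, 196.1 and 189.2 CPM with cytosol targeting and 200.6, 188.5 and 187.5 CPM with ER targeting. Plxna1 was thus again in the order seen for Kit, with a log2 ratio of 1.83 ± 0.038 (SE, adjusted p = 4.9e-31). The semaphorin receptor Plxnb2 was at 1.82, the netrin receptor Unc5b at 1.47 and the Slit receptor Robo1 at 1.21.

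Ptprf (ENSMUSG00000033295), the receptor phosphatase also called LAR, was at 250.1, 233.9 and 252.8 CPM on cytosol-labelled and 1074.8, 1064.0 and 1075.2 CPM on ER-labelled ribosomes. Its whole-cell level was 527.7, 526.3 and 500.7 CPM with cytosol targeting and 525.4, 520.6 and 533.1 CPM with ER targeting. All ER-labelled libraries were above, and all cytosol-labelled below, those of whole-cell RNA, and the log2 ratio was 2.12 ± 0.035 (SE, adjusted p = 1.3e-33). Adgrl1 (ENSMUSG00000013033), a latrophilin of the adhesion G protein-coupled receptors, was at 122.5, 127.7 and 126.0 CPM on cytosol-labelled and 271.7, 265.5 and 283.4 CPM on ER-labelled ribosomes. Whole-cell RNA gave 163.7, 176.4 and 156.1 CPM with cytosol targeting and 159.6, 146.6 and 174.0 CPM with ER targeting. The order of groups was the same as for Ptprf and the log2 ratio lower, at 1.12 ± 0.046 (SE, adjusted p = 4.5e-22). Ptprk, an adhesion phosphatase, was at 2.03 and Ptpra, which acts on Src kinases, at 1.52. Exons of Adgrl1, Fgfr3, Plxna1 and Notch1 overlap a gene on the opposite strand over 15.6%, 13.9%, 10.7% and 10.4% of their length, and whether the counts used strand is not given in the sources used here.

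**Figure D2:**
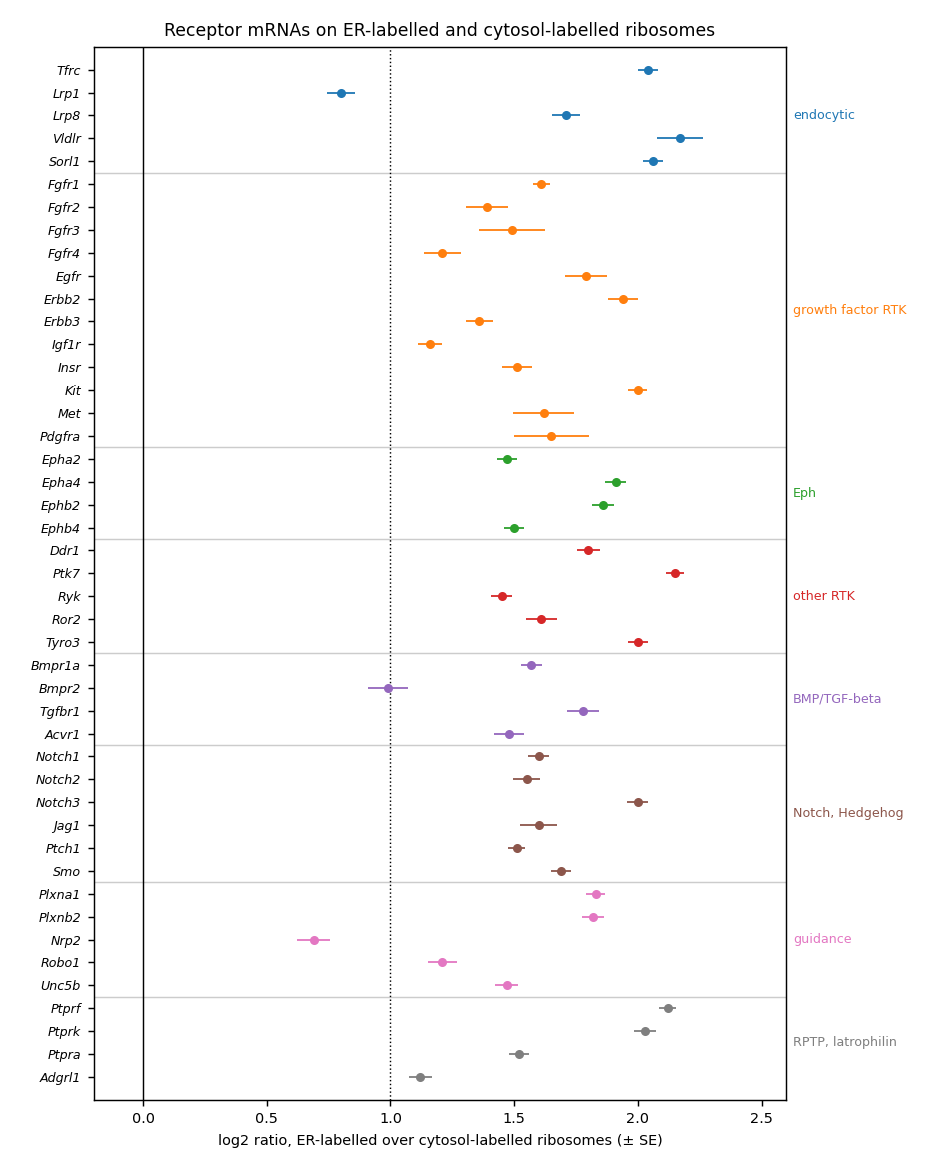
Log2 ratio of ER-labelled over cytosol-labelled ribosome-bound RNA for each receptor (point) with its SE (bar), grouped by role; the dotted line is 2-fold. All 45 points lie to the right of 0, and Nrp2, Lrp1 and Bmpr2 lie left of the dotted line.

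The receptors were set beside 1408 other genes whose products carry both an N-terminal and an internal hydrophobic segment. Those genes had a median log2 ratio of 1.54, with quartiles of 1.11 and 1.88, and 89.0% of them were called higher on ER-labelled ribosomes. Of the 45 receptors, 27 lay above that median, 11 above the upper quartile and 3 below the lower quartile. The 3 low receptors were Bmpr2, Lrp1 at percentile 13.9 of these genes and Nrp2 at 12.6. At the top, Vldlr, Ptk7 and Ptprf stood at percentiles 93.2, 92.2 and 90.6. Tfrc and Ptch1, without an N-terminal segment, were at percentiles 86.0 and 47.4. Nrp2 (score 1.97), Erbb2, Ephb4, Ror2, Notch2 and Plxnb2 also had no N-terminal call, with scores just under the cut. All of these were thus ranked among genes of a class that the cut did not place them in.

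On ER-labelled ribosomes 43 of 45 receptor mRNAs were higher than in whole-cell RNA of the same targeting, where 32.5% of tested genes were called higher. The median log2 ratio of the receptors was 0.98 and that of all tested genes 0.01. In 21 receptors the ratio exceeded 2-fold, as it did in 16.5% of tested genes. The highest ratios belonged to Egfr and 3 of the 4 FGF receptors: Fgfr1 at 1.50 ± 0.033, Egfr at 1.47 ± 0.084, Fgfr3 at 1.46 ± 0.137 and Fgfr4 at 1.44 ± 0.079 (SE). Fgfr2 was at 0.87 ± 0.083, below the receptors' median. Fgfr1, known as a main FGF receptor of embryonic stem cells, was at 467.6, 471.7 and 464.3 CPM on ER-labelled ribosomes, against 164.7, 167.2 and 165.6 CPM in whole-cell RNA. Lrp1 was the one of the 45 receptors called lower, with a log2 ratio of -0.74 ± 0.053 (0.60-fold, adjusted p = 8.4e-15), beside 30.6% of tested genes. Among 63 tested family relatives, described below, 54 were called higher and 1 lower (median 1.00). The lower one was Lrp2, with a coding length of 13983 bases, at -1.21 ± 0.077 (SE, adjusted p = 3.7e-16). Bmpr2 was not called, with a log2 ratio of 0.12 ± 0.075 (adjusted p = 0.15), but was called higher with cytosolic scaling (log2 0.34, adjusted p = 3.5e-04). With that scaling 7939 of 16221 tested genes were called higher, and the median of all tested genes rose to 0.234. In the main fit 36 of 42 tested ligands of the receptors were called higher and 0 lower, with a median of 1.35.

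On cytosol-labelled ribosomes 42 of 45 receptor mRNAs were lower than in whole-cell RNA, where 33.0% of tested genes were called lower. The median log2 ratio was -0.64 for the receptors and -0.05 for all tested genes, and 8 receptors were more than 2-fold lower, as were 3.66% of tested genes. The iron importer Tfrc fell most, from 289.9, 293.3 and 300.7 CPM in whole-cell RNA to 106.5, 97.4 and 111.2 CPM (log2 -1.49 ± 0.041, SE, adjusted p = 2.8e-26). Next came Lrp1 at -1.46, Ptprk at -1.36, Sorl1 at -1.30, Notch2 at -1.26, Notch3 at -1.25, Notch1 at -1.13 and Ptprf at -1.08. Tested against a 1.5-fold change, 19 receptors were called lower, beside 6.77% of tested genes, and 0 higher, beside 1.37%. The same test left 34 receptors higher on ER-labelled ribosomes, beside 18.5% of tested genes.

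Of the 4 FGF receptors, Fgfr2 was called lower (log2 -0.38 ± 0.095, SE, adjusted p = 8.3e-04), and the other 3 were among the 4 receptors with the highest ratios. Fgfr4, which was at 17.2, 13.6 and 17.4 CPM on cytosol-labelled ribosomes and 15.2, 13.1 and 12.8 CPM in whole-cell RNA, was the one receptor called higher, beside 20.8% of tested genes (log2 0.23 ± 0.086, SE, adjusted p = 0.023). Its groups overlapped, and the call was lost without replicate 1 or without replicate 3 of the cytosol-labelled ribosomes (log2 0.18 and 0.17, adjusted p = 0.11 and 0.15). Fgfr3 and Nrp2 were not called, with log2 ratios of 0.08 ± 0.160 and -0.08 ± 0.071 (adjusted p = 0.69 and 0.35). Fgfr1 had a log2 ratio of -0.11 ± 0.034 (adjusted p = 0.0056), from 164.8, 164.8 and 166.6 CPM in whole-cell RNA to 153.9, 148.9 and 156.5 CPM. Its call was lost with each of 3 other scalings (log2 -0.07 to -0.05), without the filter on low counts (-0.06), with only the compared groups in the fit (-0.05), with DESeq2 (-0.07, adjusted p = 0.068) and without cytosol-labelled replicate 2 (-0.04, adjusted p = 0.46). It was lost, too, without any 1 library of ER-labelled ribosomes, of cytosol whole-cell RNA, or ER whole-cell replicate 2 or 3 (-0.06 or -0.05). All tested genes moved in the same fits. Their median in this comparison was -0.054 in the main fit and lay between -0.015 (DESeq2) and 0.005 (without mitochondrially encoded genes) in these. For Egfr the log2 ratio of -0.31 ± 0.098 (adjusted p = 0.0072) became -0.27 with DESeq2 (adjusted p = 0.051), and -0.21 without cytosol-labelled replicate 2, -0.25 without cytosol whole-cell replicate 1 and -0.26 without replicate 3 (adjusted p = 0.11, 0.062 and 0.052). Pdgfra, at -0.64 ± 0.170 (adjusted p = 0.0018), was at -0.38 without cytosol whole-cell replicate 3 (adjusted p = 0.075). Tfrc, Sorl1, Ptprk and the FGF receptors are described here with their values because of those values, beyond the receptors that the naming rule chose.

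**Figure D3:**
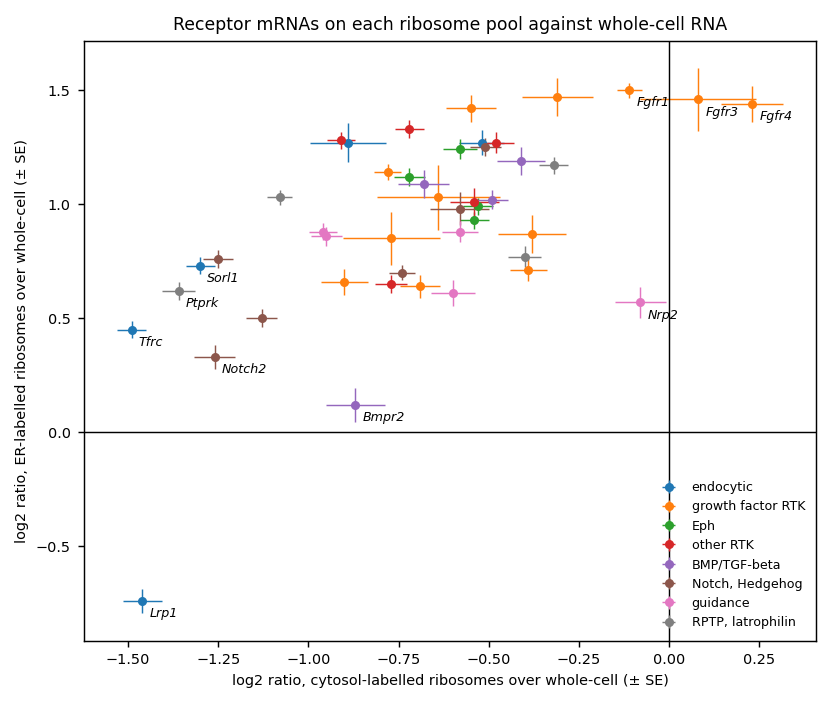
Log2 ratio of ER-labelled ribosomes over whole-cell RNA (vertical) against that of cytosol-labelled ribosomes over whole-cell RNA (horizontal) for the 45 receptors, with SE bars and colours for roles. Most points lie in the upper left part; Lrp1 lies below 0 on both axes, and Fgfr3 and Fgfr4 lie to the right of 0.

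The enrichments over whole-cell RNA in the cytosol-targeted and the ER-targeted cells share no library, and each shares its ribosome libraries with the comparison of both ribosome groups. In 40 of 45 receptors the mRNA was called higher on ER-labelled ribosomes and lower on cytosol-labelled ribosomes than in the respective whole-cell RNA, as were 10.9% of tested genes. The difference between both enrichments was above 0 in all 45 receptors (24.8% of tested genes were called higher), with a median log2 of 1.61 and a range from 0.65 for Nrp2 to 2.20 for Ptk7. The split differed between receptors of like total difference. Tfrc and Kit had log2 ratios of 2.04 and 2.00 between the ribosome groups. Tfrc was 0.45 above whole-cell RNA on ER-labelled ribosomes and -1.49 from it on cytosol-labelled ribosomes, whereas Kit was at 1.14 and -0.78.

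In whole-cell RNA no receptor was called between ER and cytosol targeting by edgeR's test, as was no gene among all tested (0%). At an unadjusted p under 0.05 there were 2 receptors and 634 of 16221 genes, DESeq2 called 0 of either, and without the filter on low counts 7 genes, none a receptor, were called lower. The receptors' log2 ratios ran from -0.13 for Acvr1 to 0.14 for Fgfr2 with a median of 0.01. Tfrc, Kit, Epha4 and Ptch1 had all 3 ER-targeted libraries above the 3 cytosol-targeted ones, with log2 ratios of 0.10, 0.08, 0.07 and 0.07; 5.50% of tested genes did so. In bulk RNA such as this, a level does not tell fewer cells with the mRNA from less mRNA per cell.

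Whole-cell levels of different receptors were compared per kilobase of exon. Ptprf was highest with 57.1 CPM per kb (54.7 to 58.3 over the 6 whole-cell libraries), followed by Tfrc with 49.4 (46.9 to 53.3) and Ptk7 with 36.8 (35.2 to 37.6). The ranges of these 3 did not overlap. Tyro3 at 23.6, Notch3 at 23.1 and Plxna1 at 21.3 came next, and the libraries of Notch3 overlapped those of both neighbours. Fgfr1, at 16.8 CPM per kb (16.7 to 16.9), was the most abundant FGF receptor, above Fgfr4 at 3.87, Fgfr2 at 1.17 and Fgfr3 at 0.592. At the low end were Bmpr2 at 0.895, Met at 0.875, Egfr at 0.749 and Pdgfra at 0.336 (0.288 to 0.428). The ranges of Bmpr2, Met and Egfr overlapped or touched, as did those of Egfr and Fgfr3, and that of Pdgfra lay below the range of every other receptor.

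Coding length, which runs from 1512 bases in Tgfbr1 to 13638 bases in Lrp1, was set against the ratios. Spearman's rho with the ratio between the ribosome groups was 0.07 over the 45 receptors. Against whole-cell RNA, longer receptors had lower values in both ribosome groups, with a rho of -0.49 on ER-labelled and -0.57 on cytosol-labelled ribosomes. These are descriptions over genes that share the same libraries. Without Lrp1, Sorl1, Notch1, Notch2 and Notch3, the 5 receptors of at least 6000 bases, rho over the remaining 40 was 0.07, -0.36 and -0.42. Genes without hydrophobic segments (8842) had the same signs, with 0.07, -0.38 and -0.38, and the 1408 other genes with both segments had -0.09, -0.32 and -0.29. The ratio between the ribosome groups had a rho of 0.34 with the mean level of the receptors, and of 0.46 in the 1408 other genes.

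By class of coding length, the receptors' median log2 ratio of ER-labelled ribosomes to whole-cell RNA was 1.06 under 2000 bases (4 receptors), 1.17 from 2000 to under 3000 (19), 1.16 from 3000 to under 4000 (6), 0.71 from 4000 to under 6000 (11) and 0.50 from 6000 bases (5). Other genes with both segments went from 1.33 in the shortest class to 0.25 in the longest. On cytosol-labelled ribosomes the receptors' medians were -0.59, -0.53, -0.61, -0.77 and -1.26, and those of the other genes with both segments went from -0.25 to -0.85. The ratio between the ribosome groups was 1.53, 1.61, 1.72, 1.51 and 1.60 in the receptors, while it went from 1.59 to 1.19 in the other genes. In the longest class Lrp1 (13638 bases, 0.80) stood below Notch2 (7422 bases, 1.55), Notch1 (7596 bases, 1.60), Notch3 (6957 bases, 2.00) and Sorl1 (6648 bases, 2.06). Tfrc does not follow this order: its coding length is 2292 bases, and its ratio of cytosol-labelled ribosomes to whole-cell RNA was the lowest of all 45.

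**Figure D4:**
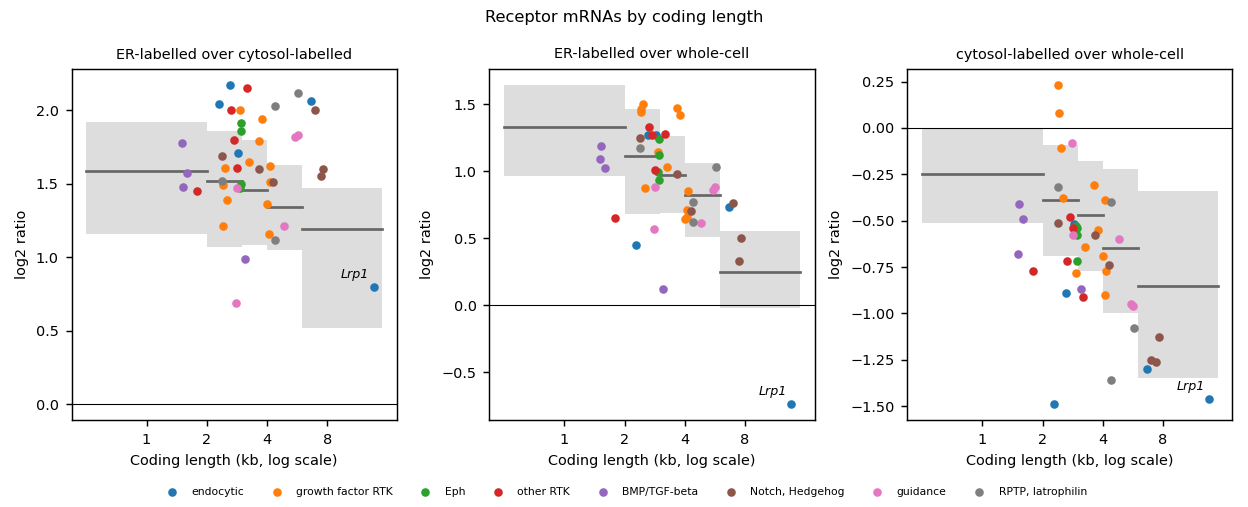
Log2 ratios of the 45 receptors against coding length (kb, log axis) for the 3 comparisons that involve ribosome-bound RNA; grey boxes span the quartiles, and lines mark the medians, of other genes with both hydrophobic segments in 5 length classes. In the panels against whole-cell RNA the receptors over 6 kb have the lowest class medians (0.50 and -1.26), though single shorter receptors such as Tfrc lie lower than most of them.

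Genes that act with these receptors were described from lists. Of 74 family relatives of the receptors 63 were tested. On ER-labelled relative to cytosol-labelled ribosomes 57 of them rose and 0 fell (29.1% of tested genes were called higher), with a median log2 ratio of 1.47. The 6 without a call (Kdr, Alk, Insrr, Robo3, Dcc and Adgrl3) were at 0.31 to 1.22 CPM on average in the ribosome groups. Some called relatives were as low: Unc5d was at 0.11 CPM on cytosol-labelled and 0.43 CPM on ER-labelled ribosomes, and Ptprd at 0.28 and 0.87 CPM. Genes this low may have passed the filter only through the ER-labelled libraries, so little weight rests on their calls. The sorting receptor Sort1 (2.47 ± 0.043) and the TGF-beta coreceptor Tgfbr3 (2.30 ± 0.139) were highest, and Amhr2 (0.37 ± 0.090) and Pdgfrb (0.72 ± 0.079) lowest among those called. Of the 42 ligands tested 41 were higher, with a median of 1.60. The growth factors Gdf3 (2.03 ± 0.040) and Fgf15 (2.00 ± 0.098) led them, Nrg1 (0.45 ± 0.144) and the Kit ligand Kitl (0.84 ± 0.200) were lowest among those called, and Fgf5, at 0.65 and 0.78 CPM on average, was not called. The called ligand Tgfb2 was low too, at 0.28 CPM on cytosol-labelled and 0.76 CPM on ER-labelled ribosomes, and the same limit holds for it. The call of Nrg1 was lost with DESeq2 (0.41), without ER-labelled replicate 1 (0.37) and without cytosol-labelled replicate 2 (0.32).

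Partners that are made as soluble proteins had ratios on both sides of 0. Their list medians ran from -0.19 to -0.02 in the main fit. Among 40 cytosolic signalling partners 5 rose and 18 fell in the same ratio (24.6% of tested genes were called lower), with a median of -0.10. With cytosolic scaling 10 were higher and 6 lower (median 0.06), and without mitochondrially encoded genes 4 and 24 (median -0.16). The kinase Araf (0.89 ± 0.043) and the Ras regulator Nf1 (0.29 ± 0.071) were highest. The adaptors Nck1 (-0.44 ± 0.057) and Crk (-0.32 ± 0.042) were lowest. Of 23 soluble kinases and phosphatases 6 were higher and 9 lower (median -0.02), which became 11 and 3 with cytosolic scaling (median 0.14) and 4 and 10 without mitochondrially encoded genes (median -0.08). The Src family kinases Lyn (0.91 ± 0.090) and Yes1 (0.67 ± 0.052) led this list, and the phosphatases Ptpn2 (-0.32 ± 0.045) and Ptpn11 (-0.30 ± 0.039) were at its end. Among 31 genes of the endocytic coat and sorting, 1 was higher and 17 lower (median -0.19), against 8 and 8 with cytosolic scaling (median -0.03), 0 and 25 without mitochondrially encoded genes (median -0.24), 0 and 19 with DESeq2 and 1 and 20 with RLE size factors. The one gene higher was the clathrin-uncoating kinase Gak (0.16 ± 0.048), whose call was lost without mitochondrially encoded genes (0.10), with DESeq2 (0.11), without the filter on low counts (0.09) and without any 1 of several libraries, among them each ER-labelled one (0.09 to 0.12) and cytosol-labelled replicate 2 (0.05). The lowest were Snx1 (-0.44 ± 0.057) and Hgs (-0.42 ± 0.046). All tested genes moved in these fits too. Of 16221 genes 4715 were higher and 3983 lower in the main fit, against 6455 and 1402 with cytosolic scaling. The counts were 4387 and 4743 with RLE size factors. Without mitochondrially encoded genes they were 4294 and 5040 of 16202, and with DESeq2 4090 and 4243 of 18562. The directions named for Araf, Nf1, Nck1, Crk, Lyn, Yes1, Ptpn2, Ptpn11, Gak, Snx1 and Hgs held with each of 3 other scalings.

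**Figure D5:**
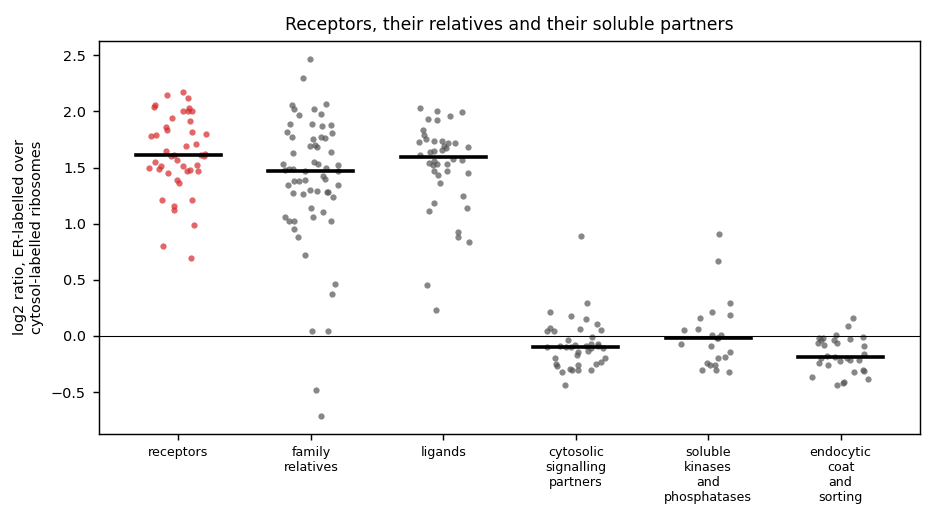
Log2 ratio of ER-labelled over cytosol-labelled ribosomes for the 45 receptors, their relatives, their ligands and 3 lists of soluble partners; each point is 1 tested gene and bars mark the medians. Medians of receptors, relatives and ligands are 1.61, 1.47 and 1.60, and those of the soluble lists are -0.10, -0.02 and -0.19.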

How the data were processed

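Poly(A) RNA of 12 libraries was sequenced from a directional kit, per the labels' protocols. The authors deposited unnormalized counts of reads for each Ensembl gene. The submitters' processing notes name HTSeq 0.11.2, STAR 2.7.9a, the build GRCm39 and DESeq2. Annotation release, strand setting and the rule for multimapped reads: not given in the sources used here.

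Class totals outside genes (8.75% to 12.54% of reads) were left out. Symbols, exon and coding lengths and coding sequences came from GENCODE M21 (GRCm38, another build, so no coordinates are printed), which matched 52083 of 55416 identifiers. Genes kept by filterByExpr were scaled by TMM and fitted with 1 model of 4 groups in edgeR 4.0.16 (R 4.3.3), and 5 comparisons were tested, 2-sided, by the quasi-likelihood test with Benjamini-Hochberg adjustment at 0.05. Each SE was derived from the log2 ratio and its F statistic. The procedure was tested on simulated counts. All pairs of replicates differed beyond counting noise (chi-square per gene 2.11 to 9.1), and errors do not cover amplification by PCR.

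Alternatives were RLE size factors, scaling to genes of cytosolic proteins, leaving out mitochondrially encoded genes, DESeq2 1.42.0, 2 other filters, only the compared groups, replicate blocks, a test against 1.5-fold, and leaving out each library. Per-library values are given for the members with the highest and the lowest ratio between ribosome groups in each role, for members not called higher there, for those on ER-labelled ribosomes called below whole-cell RNA and for those called in whole-cell RNA. In each other list the 2 highest and the 2 lowest genes past the threshold are named. The rule for the members uses no measured value, but members and all lists were chosen with earlier results of these data known.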

Additional observations from a re-analysis of the deposited data

Results flagged for a closer look

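For each of the 45 receptors the enrichment over whole-cell RNA differed between ER-labelled and cytosol-labelled ribosomes by edgeR's test of the difference itself. Of all 16221 tested genes, 4023 were called higher (24.8%) and 3010 lower by that test. The values are given as log2 differences, ER minus cytosol. No separate search for single outlying samples was made in these groups of 3 libraries. Each library was left out in turn, and all 45 calls of the difference held. Endocytic receptors differed by 1.94 (Tfrc), 0.72 (Lrp1), 1.79 (Lrp8), 2.16 (Vldlr) and 2.03 (Sorl1). In the FGF receptors the difference was 1.61 (Fgfr1), 1.25 (Fgfr2), 1.38 (Fgfr3) and 1.21 (Fgfr4). Other growth factor receptors gave 1.78 (Egfr), 1.97 (Erbb2), 1.33 (Erbb3), 1.10 (Igf1r), 1.57 (Insr), 1.92 (Kit), 1.63 (Met) and 1.67 (Pdgfra). Eph receptors gave 1.52 (Epha2), 1.84 (Epha4), 1.82 (Ephb2) and 1.47 (Ephb4). The remaining receptor tyrosine kinases and pseudokinases were at 1.76 (Ddr1), 2.20 (Ptk7), 1.42 (Ryk), 1.55 (Ror2) and 2.05 (Tyro3).

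Among BMP, TGF-beta and activin receptors the difference was 1.51 (Bmpr1a), 0.99 (Bmpr2), 1.77 (Tgfbr1) and 1.60 (Acvr1). Notch and Hedgehog genes were at 1.62 (Notch1), 1.59 (Notch2), 2.00 (Notch3), 1.56 (Jag1), 1.44 (Ptch1) and 1.77 (Smo). Guidance receptors were at 1.84 (Plxna1), 1.81 (Plxnb2), 0.65 (Nrp2), 1.21 (Robo1) and 1.46 (Unc5b). The phosphatases and the latrophilin were at 2.10 (Ptprf), 1.98 (Ptprk), 1.49 (Ptpra) and 1.17 (Adgrl1). Lrp1 and Nrp2 lost the call when tested against a 1.5-fold difference, where 2813 of 16221 tested genes were called higher.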

How the results depend on the processing

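The 45 calls between the ribosome groups held under every alternative run, except Nrp2 in the test against 1.5-fold, and the 45 differences of enrichments held except Lrp1 and Nrp2 in that test. Of all 16221 tested genes 4715 were called higher and 3983 lower between ribosome groups in the main fit. The counts were 6455 and 1402 with cytosolic scaling. Cytosolic scaling moved the receptors' median log2 from 1.61 to 1.76 between ribosome groups, from 0.98 to 1.20 for ER-labelled ribosomes over whole-cell RNA and from 1.61 to 1.78 for the difference of enrichments. All tested genes moved with it, to medians of 0.156, 0.234 and 0.169, by the construction of that scaling. The test against 1.5-fold left, against whole-cell RNA, 34 of 43 receptors higher on ER-labelled ribosomes (18.5% of tested genes), and 19 of 42 lower (6.77%) and 0 of 1 higher (1.37%) on cytosol-labelled ribosomes. Leaving out each library in turn gave medians of 1.49 to 1.64 between ribosome groups (lowest without cytosol-labelled replicate 2), 0.94 to 0.99 for ER-labelled ribosomes over whole-cell RNA (lowest without ER whole-cell replicate 2), -0.68 to -0.56 for cytosol-labelled ribosomes over whole-cell RNA (highest without cytosol whole-cell replicate 3) and 1.52 to 1.62 for the difference. In these fits 0 to 1 receptors were called higher and 39 to 42 lower on cytosol-labelled ribosomes, the 0 arising without cytosol-labelled replicate 1 or 3. Of the 16483 to 16532 genes tested in them, 3040 to 4227 were higher and 4439 to 5326 lower in that comparison. The medians of all tested genes moved too. They were -0.062 to 0.001 between ribosome groups, 0.009 to 0.017 and -0.054 to 0 for ER-labelled and cytosol-labelled ribosomes over whole-cell RNA, and -0.053 to 0.003 for the difference. Nrp2, not called on cytosol-labelled ribosomes (-0.08), ranged from -0.09 to 0.00, the latter without cytosol whole-cell replicate 3. The cause of these shifts was not tested.

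Whole-cell RNA came from the same lysates, but the labels do not tie a replicate number to a lysate, and the data were mixed on such a pairing: deviations of same-numbered ribosome-bound and whole-cell libraries correlated at 0.096, 0.1 and 0.056 (cytosol) and -0.007, 0.259 and 0.263 (ER), and not every library correlated best with its own number. With the replicate block the median between ribosome groups was 1.61 with 45 receptors called, and neither it nor a block per number within each labelling construct changed the call of any receptor. Depth limits Pdgfra, Fgfr3 and Met most, whose SEs reached 0.170, 0.163 and 0.135 in comparisons of groups.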
